A study of Mus musculus with 20 samples.

Results

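The nuclear genes for oxidative phosphorylation were followed in single cells of the basolateral amygdala (BLA), as UMI counts (counts of unique molecules). Members were chosen by gene symbol (Ndufa, Ndufb, Ndufc, Ndufs and Ndufv followed by a digit, Sdha to Sdhd, and symbols that start with Uqcr, Cox4 to Cox8 or Atp5) and by measured abundance, since a member had to hold at least 20 UMIs in the kept cells of 9 libraries. Of 31053 features, 84 matched by symbol and 80 reached the limit. Just outside it were Cox7b2 with 18 UMIs, Cox8b with 16, and Cox8c and a second Atp5o identifier with 0. Just inside it were Cox6a2 with 22 UMIs, Cox7a1 with 41 and Atp5s with 165. The 80 members comprised 35 of complex I, 4 of complex II, 8 of complex III, 17 of complex IV (with Ndufa4 and Ndufa4l2, which were counted there) and 16 of complex V. Together they held 184659 UMIs, 1.49% of the UMIs of genes other than the 13 mitochondrially encoded mt- genes. The median member held 2102 UMIs and 68 of the 80 held at least 1000. The most abundant was Cox8a with 7993 UMIs, followed by Cox4i1 with 7065.

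Oxidative phosphorylation moves electrons from NADH and succinate through complexes I to IV of the inner mitochondrial membrane to oxygen, and complex V uses the proton gradient so built to make ATP. Complex II is coded wholly in the nucleus, whereas complexes I, III, IV and V each join nuclear subunits to subunits coded by mitochondrial DNA. Several nuclear subunits exist as pairs of isoforms from different genes, and in brain the mural cells of small vessels (pericytes and smooth muscle cells), neurons and glia are known to use different ones.

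Each of the 10 BLA libraries came from 1 male wild-type C57BL/6 mouse, 13 weeks old. For 6 weeks the drinking water held either corticosterone (CORT, 35 µg/ml) or its cyclodextrin vehicle (BCD), and 24 h before harvest each mouse received 1 injection of ketamine (Ket, 10 mg/kg) or saline (Sal). Mice 9901 and 9947 formed the group BCD/Sal, mice 9946, 9949 and 9986 formed BCD/Ket, mice 9969 and 9970 formed CORT/Sal, and mice 9967, 9968 and 9971 formed CORT/Ket. The design asks whether corticosterone exposure, and ketamine after it, changed expression within cell types. The labels place these libraries in the BLA, while the dissection text that comes with them names the prefrontal cortex.

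Of 28722 barcodes, those with an mt- share of UMIs up to 0.125 and at least 200 genes were kept, which left 5908 in the 9 libraries other than mouse 9970. Mouse 9970 (CORT/Sal) stood apart: 2347 of its 2397 kept barcodes formed a cluster led by hemoglobin genes, so CORT/Sal is represented below by mouse 9969 alone unless stated. Total kept UMIs ran from 287013 to 2332898 per library, and 21 kept barcodes occurred in more than 1 library. Cells were clustered without the members and without the mt- genes, and each cluster was named from marker genes; class names are short for "microglia-like" and so on. The 8 classes compared were microglia (857 cells), astrocytes (1386), endothelial cells (814), inhibitory neurons (409), oligodendrocyte precursor cells (OPC, 405), oligodendrocytes (373), mural cells (269) and excitatory neurons (262). Clusters holding 994 cells stayed unnamed, 704 of them in a cluster with 2 excitatory markers among its leading genes. Levels are given in CPM (UMIs per 1000000 UMIs of genes other than mt-), summed over the cells of a class in a mouse; such a sum cannot tell fewer transcripts per cell from more of all other RNA. Class differences are log2 differences from edgeR's quasi-likelihood test with the mouse as a block. Their standard error (SE) is the size of the difference divided by the square root of the test's F statistic. Adjusted p is the test's Benjamini-Hochberg value over all 8526 genes tested. The fit scaled by all UMIs, mt- genes included, with TMM factors, so its differences need not follow the CPM means.

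The clearest cell-type pattern among the members was in mural cells, where Ndufa4l2 and Cox4i2, the isoform partners of Ndufa4 and Cox4i1, reached levels far above those of every other tested class. Ndufa4l2 (chromosome 10, 126951995 to 126954208, plus strand; coordinates of these genes are those of NCBIM37, or mm9), a paralog of the complex IV subunit gene Ndufa4, had 603 UMIs in mural cells and 87 in endothelial cells. In the 7 mice with at least 10 mural cells its level ran from 214 over a median of 877 to 1380 CPM, with a mean of 839 ± 356 (SD, n = 7). In endothelial cells it ran from 20.3 over 63.8 to 91.2 CPM, with a mean of 60.2 ± 24.1 (SD, n = 9). The 2 ranges did not overlap, and the lowest mural value came from mouse 9946, which had 12 mural cells. The mural minus endothelial difference was 3.55 ± 0.22 on the log2 scale (edgeR adjusted p = 5.13e-35), with mural cells higher in 7 of 7 mice. Elsewhere Ndufa4l2 had 1 UMI in excitatory neurons and 1 in astrocytes, and 0 in inhibitory neurons, oligodendrocytes, OPC and microglia. Against excitatory neurons the pooled endothelial level was 80.8 times as high, from 87 UMIs against 1 (95% counting interval 14.1 to 3230). Such a gene passes a filter on low counts only through the classes where it is high.

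Ndufa4 (chromosome 6, 11850373 to 11857446, minus strand), coding a subunit now placed in complex IV, ran the other way between these vessel classes. It lay between 107 and 323 CPM in mural cells (mean 218 ± 75.8, SD, n = 7) and between 234 and 546 in endothelial cells (mean 390 ± 110, SD, n = 9). The ranges overlapped, but mural cells were the lower in each of 7 mice, by a log2 difference of -1.14 ± 0.25 (edgeR adjusted p = 0.00013). Of the UMIs of both genes together, Ndufa4l2 held 78.5% in mural cells (72.5% to 87.0% over 6 mice with at least 20 such UMIs) and 12.7% in endothelial cells (5.88% to 19.3%). These are shares of UMIs counted, and they depend on how well the transcripts of each gene are captured.

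Cox4i2 (chromosome 2, 152579909 to 152590773, plus strand) codes the alternative form of complex IV subunit 4, which is known for its response to low oxygen. In mural cells it ran from 0 over 302 to 546 CPM (mean 307 ± 167, SD, n = 7). The value of 0 came from mouse 9946, where a count of 0 allows up to 320.4 CPM. In endothelial cells it ran from 0 over 24.1 to 117 (mean 28.4 ± 35.1, SD, n = 9), so the ranges overlapped only through that mouse. The 117 came from mouse 9967 and was under the 175.6 CPM that 3 counts would give there. The mural minus endothelial difference was 3.99 ± 0.30 (edgeR adjusted p = 2.16e-25), and 6 of 7 mice were higher in mural cells. Excitatory neurons, inhibitory neurons, oligodendrocytes and OPC had 0 UMIs of Cox4i2, and astrocytes had 21. Against excitatory neurons, whose pooled floor is 3 counts, the pooled level was at least 7.74-fold higher in endothelial cells and at least 3.64-fold higher in astrocytes. Its usual partner Cox4i1 (chromosome 8, 123192190 to 123198109, plus strand) was similar in the vessel classes, with a mean of 519 ± 92.2 in mural (n = 7) and 431 ± 171 in endothelial cells (n = 9) and a log2 difference of -0.11 ± 0.24 (edgeR adjusted p = 0.825). Cox4i2 made up 40.8% of the UMIs of both genes in mural cells (32.0% to 50% over mice), 3.60% in endothelial cells and 1.13% in astrocytes.

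Markers of the neighbouring vessel class were present in both sums. All 12 mural markers were detected in endothelial cells, at 479 to 2965 CPM in sum against 16127 to 28402 in mural cells. All 13 endothelial markers were detected in mural cells, at 8911 to 14112 CPM against 25270 to 35177 in endothelial cells. The part of such shared RNA in the endothelial levels of Ndufa4l2 and Cox4i2 was not tested.

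Cox6b2 (chromosome 7, 4703396 to 4704696, minus strand), the partner of the complex IV subunit gene Cox6b1 known from testis, was found mainly in astrocytes, OPC and mural cells here. In astrocytes it ran from 0 over 31.8 to 83.6 CPM (90 UMIs, mean 33.9 ± 25.9, SD, n = 9), in OPC from 0 over 28.4 to 43.0 (18 UMIs) and in mural cells from 0 over 23.7 to 61.8 (21 UMIs). Neither neuron class had a UMI of it, so the pooled astrocyte level was at least 15.6-fold higher than that of excitatory neurons. The ranges of these 3 classes all began at 0. Oligodendrocytes held 5 UMIs of it and microglia 6. Mural cells exceeded endothelial cells by 2.90 ± 0.66 (edgeR adjusted p = 0.000209, 5 of 7 mice), where endothelial cells held 4 UMIs and a highest value of 58.5. Cox6b2 held 10.3% of the UMIs of Cox6b1 and Cox6b2 in astrocytes, 8.61% in OPC and 9.29% in mural cells. The isoforms known from heart and skeletal muscle were rare: of the UMIs of Cox6a2 in these classes, 12 were in inhibitory neurons, where they ran from 0 to 34.3 CPM, and 17 UMIs of Cox7a1 were in astrocytes. Cox6a2, Cox7a1, Atp5s and Ndufa9 were too low for the test of classes, which covered the other 76 members.

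Cox7a2l (chromosome 17, 83901259 to 83913673, minus strand), a paralog of Cox7a2 of complex IV, separated microglia and vessel cells from neurons and macroglia. It ran from 221 over 317 to 414 CPM in microglia, from 228 over 275 to 420 in endothelial cells and from 214 over 258 to 362 in mural cells. In astrocytes it ran from 0 over 67.4 to 110, in inhibitory neurons from 26.8 over 58.7 to 126 and in OPC from 14.3 over 68.1 to 137. Those 3 classes lay wholly below the other 3, and the medians of oligodendrocytes (165; 86.1 to 194) and excitatory neurons (145; 50.1 to 257) were between them. Excitatory neurons were lower than microglia by a log2 difference of -1.34 ± 0.21 (edgeR adjusted p = 6.44e-09), lower in 5 of 5 mice with both classes. They were lower than endothelial cells by -1.10 ± 0.20 (edgeR adjusted p = 4.89e-07) in 8 of 8 mice, and higher than astrocytes by 0.69 ± 0.23 (edgeR adjusted p = 0.00516) in 7 of 8. Neighbours within the upper 3 classes differed by less than their spread over mice.

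**Figure D1:**
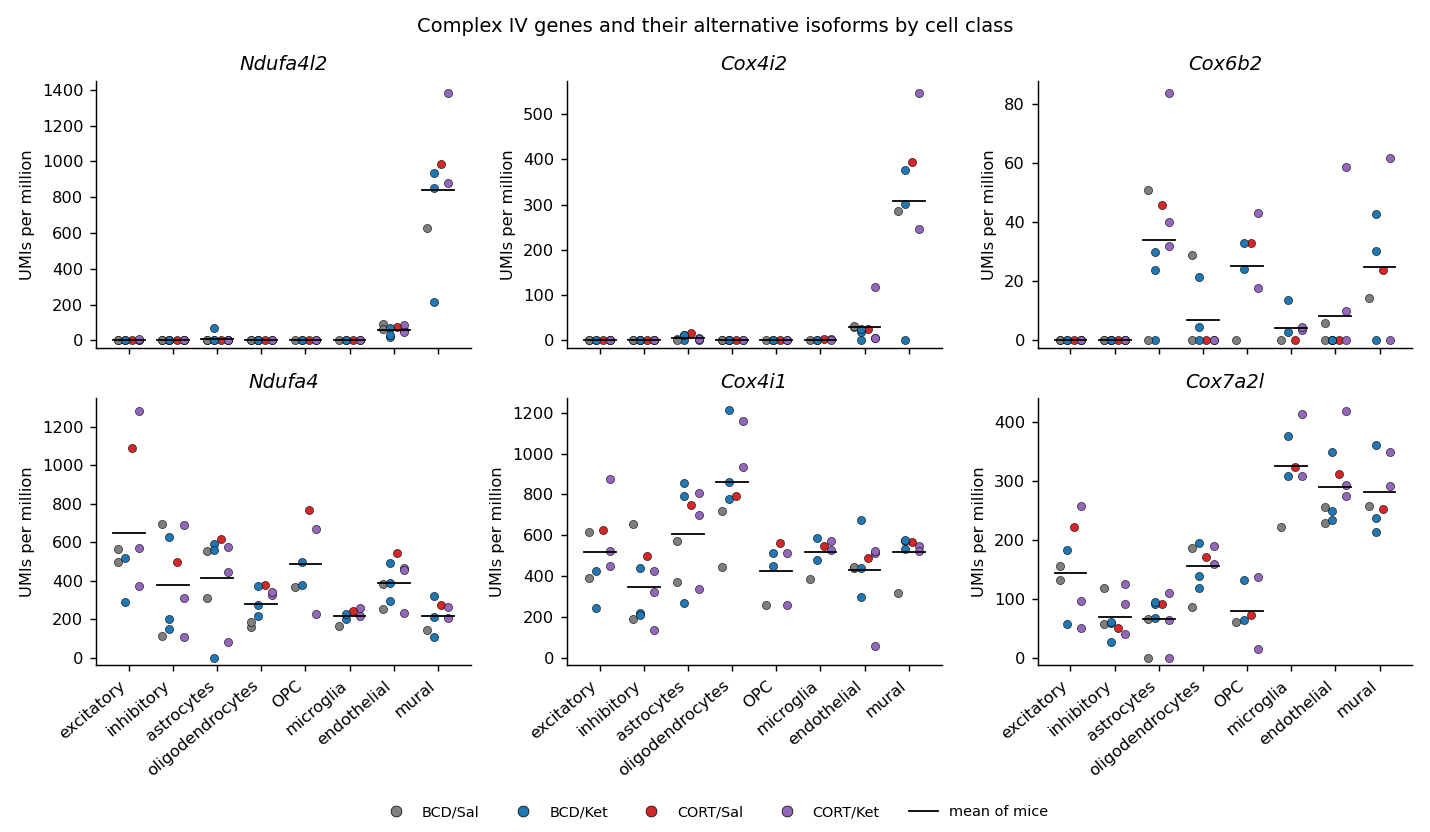
Level of 6 members in each cell class (y axis, CPM), with 1 point per mouse and a line at the mean over mice. Ndufa4l2 and Cox4i2 stand high in mural cells with means of 839 and 307, Cox6b2 is at 0 in both neuron classes, and Cox7a2l is highest among these classes in microglia, endothelial and mural cells.

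Atp5g1, Atp5g2 and Atp5g3 code the same mature subunit c of the complex V rotor from separate genes, which are known to differ in the peptide that directs import and in their promoters. The 100 bases upstream of each start are shown because the use of the 3 genes differed between classes (RefSeq, GRCm38.p6, minus strand, written 5′ to 3′), with matches to the motifs named below in capitals.
Atp5g1 chr11:96075632-96075731: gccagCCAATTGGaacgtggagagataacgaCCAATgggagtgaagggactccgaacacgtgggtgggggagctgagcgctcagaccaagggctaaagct
Atp5g2 chr15:102671048-102671147: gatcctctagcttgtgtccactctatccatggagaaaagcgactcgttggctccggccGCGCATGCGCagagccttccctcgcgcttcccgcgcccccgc
Atp5g3 chr2:73911327-73911426: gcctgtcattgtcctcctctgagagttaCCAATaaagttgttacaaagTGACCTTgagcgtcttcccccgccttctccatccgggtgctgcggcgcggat
The motifs were searched on both strands as exact letters. The Atp5g1 stretch held CCAAT at 95 and 69 bases before the start and on the other strand at 92, where it overlaps the first. The Atp5g2 stretch held the NRF1 motif GCGCNNGCG on both strands, in overlapping matches that begin 42 and 41 bases before the start, and the Atp5g3 stretch held CCAAT at 72 and the ERR motif AAGGTCA, read on the other strand, at 52. Over 250 upstream bases, a gene was counted where any of its listed promoters held the motif. Of the 64 member genes with a listed promoter 28.1% held the NRF1 motif, against 11.1% of all 27025 such genes. The ETS motif CGGAAG was in 31.3% against 15.3%, and AAGGTCA in 7.81% against 4.70%. CCAAT was in 43.8% against 37.5% and the YY1 motif AAGATGGC in 1.56% against 1.83%. A match describes the letters and is not evidence of binding.

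Neurons drew subunit c transcripts mainly from Atp5g1 and Atp5g3, and microglia, vessel cells and OPC mainly from Atp5g2. Of the UMIs of the 3 genes, Atp5g2 held 60.0% in microglia, 51.5% in OPC, 49.5% in endothelial cells, 47.9% in mural cells and 44.3% in oligodendrocytes, but 36.1% in astrocytes, 21.7% in excitatory and 18.7% in inhibitory neurons. Atp5g3 (chromosome 2, 73746504 to 73749383 in NCBIM37) held 44.7% in inhibitory neurons (41.2% to 50% over the 3 mice with at least 20 such UMIs), 37.1% in excitatory neurons (29.9% to 60% over 8) and 35.2% in astrocytes (32.0% to 39.7% over 6), against 15.7% in microglia (11.2% to 20.2% over 6). The ranges of excitatory neurons and astrocytes overlapped, and by the median over mice the order was the reverse, with 32.8% and 34.5%. Atp5g1 (chromosome 11, 95930166 to 95936984) held between 24.3% in microglia and 41.3% in excitatory neurons.

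By level, Atp5g2 (chromosome 15, 102493299 to 102501478) ran from 30.1 over 135 to 364 CPM in excitatory neurons and from 270 over 333 to 374 in microglia, a log2 difference of -1.15 ± 0.22 (edgeR adjusted p = 1.68e-06). Atp5g3 ran from 128 over 256 to 514 in excitatory neurons and from 50.8 over 77.4 to 118 in microglia, with no overlap and a difference of 1.33 ± 0.26 (edgeR adjusted p = 2.08e-06). Atp5g1 ran from 150 over 283 to 664 against 69.1 over 136 to 184, a difference of 1.00 ± 0.24 (edgeR adjusted p = 0.000174) with ranges that overlapped slightly. The same opposite directions passed the test against endothelial cells, where Atp5g1 differed by 1.05, Atp5g2 by -0.71 and Atp5g3 by 0.84 (largest edgeR adjusted p = 0.00224). There Atp5g2 lost its call with RLE factors (-0.19) and without mouse 9946 (-0.47). With the unnamed cluster counted as excitatory, Atp5g3 lost its call against endothelial cells (0.31) and Atp5g1 against microglia (0.41). The 5% limit on the mt- share reversed Atp5g1 and Atp5g3 against both classes. Against oligodendrocytes Atp5g2 differed by -1.02 (edgeR adjusted p = 2.5e-05) and Atp5g3 by 0.69 (edgeR adjusted p = 0.0123), while Atp5g1 did not pass (0.12, edgeR adjusted p = 0.682). That call of Atp5g3 was lost under several alternatives. Among them were at least 30 cells (0.46), no mouse block (0.69), an mt- share up to 25% (0.57) and the unnamed cluster counted as excitatory (0.19). Between the neuron classes all 3 genes were lower in inhibitory neurons, by log2 differences of -0.93, -0.81 and -0.82, and of 24 alternatives 7, 7 and 8 ended the call and the 5% limit on the mt- share reversed it.

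**Figure D2:**
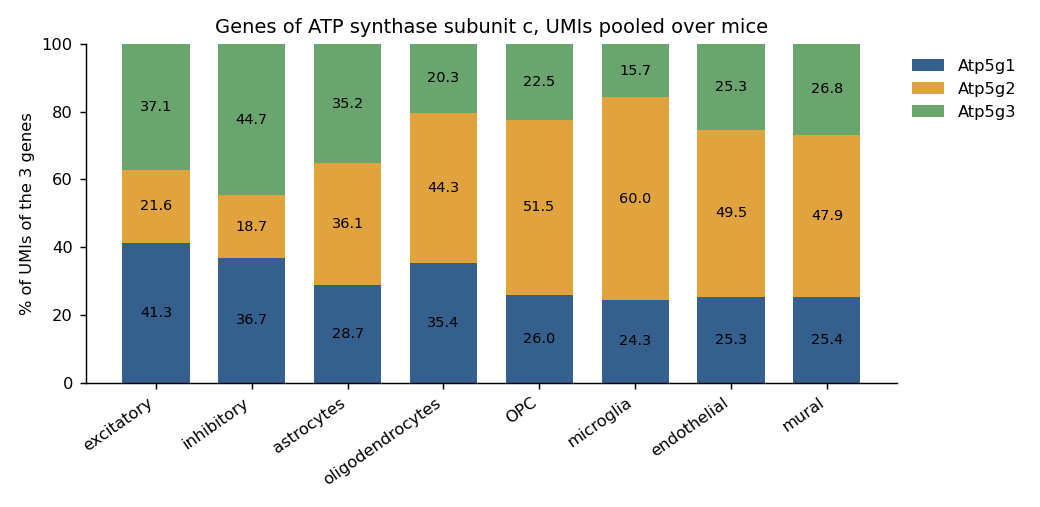
Share of the pooled UMIs of Atp5g1, Atp5g2 and Atp5g3 held by each gene (y axis, percent, stacked bars) in each of 8 cell classes. Atp5g2 grows from 18.7% in inhibitory neurons to 60.0% in microglia, and Atp5g3 shrinks from 44.7% to 15.7%.

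Summed over all 80 members, the classes overlapped widely from mouse to mouse. The sum ran from 5809 over 17491 to 21129 CPM in astrocytes, from 13244 over 17099 to 21414 in mural cells and from 11385 over 16389 to 20861 in oligodendrocytes. It ran from 9392 over 14148 to 28108 in excitatory neurons, from 7432 over 13895 to 18164 in OPC and from 9714 over 13150 to 18214 in endothelial cells. Microglia had 9352 over 10466 to 12053, and inhibitory neurons 3511 over 8442 to 20831. Of these 8 classes, the ranges of microglia and mural cells did not overlap, and every other pair did. The ranges cover different mice, 6 for microglia and 9 for astrocytes. The astrocyte sums under the microglial range, 6399 and 5809, came from mice 9946 and 9967, which held too few microglia for a sum. All other astrocyte sums were at least 14691, above the microglial range. No test was made on a sum over chosen members. The largest sums were those of choroid plexus cells, an epithelium rich in mitochondria, with 34720 and 37277 CPM in the 2 mice that had at least 10 of them. There Atp5g1 reached 1393 and 1581 and Cox4i1 2045 and 2071 CPM, both above the highest mouse of the 8 tested classes, whereas Ndufa4, with 1199 and 1640, overlapped the excitatory range. The unnamed cluster with 2 excitatory markers had the lowest sums, from 3026 over 4376 to 7491 CPM.

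Mice 9949, 9968 and 9969 were among the 3 highest in 6 of 7, 7 of 8 and 8 of 8 tested classes that they had. Their libraries belong to BCD/Ket, CORT/Ket and CORT/Sal and had the highest median UMIs per kept barcode (2453 to 2845, against 826 to 2299 in the other 6). The same 3 libraries had the highest summed levels of RNAs of the response to dissociation, 2429 to 5257 CPM against 754 to 1580. The mouse is a term of the class test, and the part of depth or of that response in the spread between mice was not tested.

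**Figure D3:**
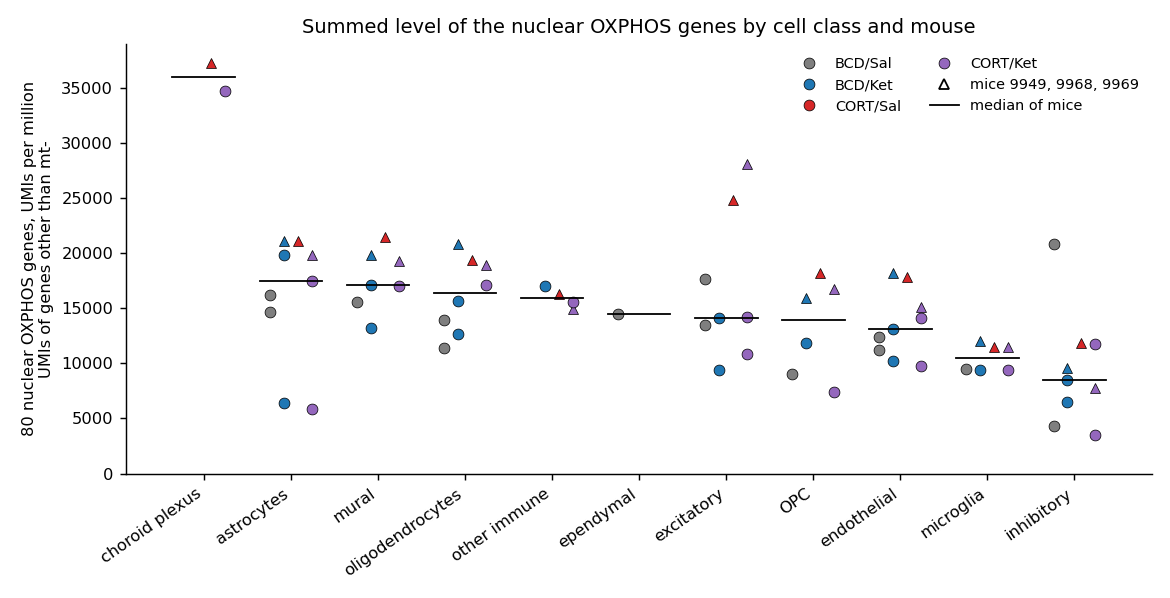
Summed level of the 80 members (y axis, CPM) in each class (x axis), with 1 point per mouse coloured by treatment group, a line at the median, and triangles for mice 9949, 9968 and 9969. Choroid plexus cells stand at 34720 and 37277, and the triangles sit near the top of most classes.

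For single members the spread over classes was modest. In 72 of the 80 the highest class mean was under 2 times the median of the classes, and in 5 it was over 3 times. The median member had a highest class mean 2.51 times its lowest. The highest mean was in oligodendrocytes for 20 members, in excitatory neurons for 18, in mural cells for 17 and in astrocytes for 13, and the lowest was in inhibitory neurons for 40 and in microglia for 23.

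Against microglia, the brain's resident macrophages, few members were called lower in excitatory neurons. Of 76 tested, 31 were higher (40.8%, against 33.8% of all genes tested) and 3 lower (3.95%, against 29.8%). The median difference over members was 0.42, against 0.06 over all genes. By complex, 16 of 34 tested members of complex I, 3 of 8 of complex III, 7 of 15 of complex IV and 5 of 15 of complex V were higher, and of the 4 genes of complex II none passed. Ndufs1, which codes the largest iron-sulfur subunit of the electron-input arm of complex I, ran from 64.2 over 97.2 to 218 CPM in excitatory neurons and from 21.8 over 27.2 to 55.3 in microglia, with no overlap and a difference of 1.45 ± 0.29 (edgeR adjusted p = 3.86e-06). Ndufs5, an accessory subunit of complex I, ran from 151 over 247 to 535 against 61.5 over 90.2 to 114, also without overlap, with a difference of 1.41 ± 0.25 (edgeR adjusted p = 3.59e-07). Ndufa4 ran from 290 over 542 to 1284 against 166 over 223 to 257, again without overlap, and differed by 1.37 ± 0.24 (edgeR adjusted p = 1.5e-07). Ndufa5, another accessory subunit of complex I, differed by 1.15 (edgeR adjusted p = 0.000388). The members that were lower were Cox7a2l, Atp5g2 and Cox6b2, each of which has a paralog among the members. Cox6b2 rested on 6 UMIs in microglia against 0 in excitatory neurons. It lost its call with DESeq2, with at least 30 cells and without mouse 9986. With an mt- share up to 5%, 0 were higher and 60 lower. At that limit 80.05% of the barcodes of the class named excitatory came from the unnamed cluster with 2 excitatory markers. The same limit turned the direction against endothelial cells and between the neuron classes, where the inhibitory class then had 2 libraries. With that unnamed cluster counted as excitatory, 9 were higher and 15 lower than in microglia.

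Against endothelial cells the calls went both ways, with 22 of 76 higher in excitatory neurons and 15 lower (all genes 31.4% and 32.01%), and a median of 0.19 against -0.04 over all genes. Complex I had 11 higher and 5 lower of 34, complex II 2 and 0 of 4, complex III 1 and 2 of 8, complex IV 3 and 5 of 15 and complex V 5 and 3 of 15. Ndufs1 was again among the highest with 1.29 ± 0.27 (edgeR adjusted p = 1.14e-05), as endothelial cells ran from 8.90 over 50.9 to 66.8 CPM. Ndufa10, an accessory subunit of complex I, ran from 86.3 over 164 to 278 in excitatory neurons and from 0 over 62.3 to 80.2 in endothelial cells, with no overlap and a difference of 1.13 (edgeR adjusted p = 1.5e-05). Ndufv2, a core subunit of complex I that carries an iron-sulfur cluster, differed by 0.93 (edgeR adjusted p = 0.000885) and Ndufb5 by 0.91 (edgeR adjusted p = 0.000116). Ndufa7, an accessory subunit of complex I, was lower by -1.46 (edgeR adjusted p = 1.93e-10). With RLE size factors in place of TMM the split was 51 higher and 5 lower, as all genes shifted by 0.49, and with the unnamed cluster counted as excitatory it was 4 higher and 27 lower. A limit of 25% gave 11 and 17, at least 500 genes 13 and 15, no block 8 and 13, and leaving out mouse 9969 gave 12 and 13.

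Against astrocytes few members were called higher in excitatory neurons, 2 of 76 (2.63%, against 29.2% of all genes). The 20 that were lower made up 26.3%, near the 28.2% of all genes. The median was -0.28 (all genes -0.02). Those higher were Cox7a2l, which lost its call in 6 of 24 alternatives, and Atp5g1, which lost it in 12 (DESeq2 adjusted p = 0.0732) and changed sign in 2. Complex I had 8 lower of 34, complex II 2 of 4, complex III 4 of 8, complex IV 3 of 15 and complex V 3 of 15. Ndufa12, an accessory subunit at the electron-input arm of complex I, differed by -1.03 ± 0.23 (edgeR adjusted p = 4.59e-05), and Ndufb11 and Ndufb7, accessory subunits of its membrane arm, by -0.95 and -0.93 (edgeR adjusted p = 4.36e-05 and 9.34e-05). RLE factors gave 4 higher and 14 lower, with all genes shifted by 0.14. Limits of 5% and 25% on the mt- share gave 0 higher with 65 and 47 lower, the unnamed cluster counted as excitatory gave 0 and 68, and without mouse 9947 35 members were called.

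Against oligodendrocytes, the myelin-forming cells, 5 of 76 were higher in excitatory neurons and 18 lower, where all genes gave 30.9% and 23.2%, with a median of -0.14 against 0.17 over all genes. Complex I had 2 higher and 10 lower, complex II 0 and 1, complex III 0 and 0, complex IV 2 and 4 and complex V 1 and 3. Those higher were Ndufs3 (0.99), a core subunit of complex I, Ndufa4 (0.98), Ndufs1 (0.76), Atp5g3 (0.69) and the complex IV subunit gene Cox7b (0.65; largest edgeR adjusted p of the 5 = 0.0163). Lower were, among others, the complex IV subunit gene Cox6a1 (-1.09, edgeR adjusted p = 6.23e-06), Ndufb11 (-1.07), Ndufa3 (-1.05) and Ndufb7 (-1.04; edgeR adjusted p = 1.28e-05, 0.00017 and 4.87e-05). With RLE factors the split was 15 higher and 10 lower, with all genes shifted by 0.26, and with the unnamed cluster counted as excitatory it was 1 higher and 43 lower.

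Between the neuron classes every call was lower in inhibitory neurons: 43 of 76 were lower, where 14.5% of all genes were, and 0 were higher, where 11.96% were. The median was -0.70, against 0.01 over all genes. Complex I had 18 lower of 34, complex II 1 of 4, complex III 4 of 8, complex IV 8 of 15 and complex V 12 of 15. Uqcr11, a small subunit of complex III, ran from 0 over 80 to 249 CPM in inhibitory neurons and from 128 over 252 to 535 in excitatory neurons, with overlapping ranges and a difference of -1.29 ± 0.26 (edgeR adjusted p = 2.07e-05). Ndufs5 differed by -1.21, the complex IV subunit gene Cox7a2 by -1.13, Ndufs6 of complex I by -1.12 and Uqcrb of complex III by -1.12 (largest edgeR adjusted p of the 4 = 0.00148). Ndufs1, high in excitatory neurons against 3 other classes, differed by 0.04 (edgeR adjusted p = 0.944). RNA of neuropil moved with this comparison: 7 of 10 genes of a list of dendrite and synapse RNAs, among them Nrgn (-2.97) and Camk2n1 (-2.19), were lower in inhibitory neurons, whose summed level of the list was 4165 to 9008 CPM against 9384 to 17554. Excitatory neurons also had more UMIs per cell, 3761 to 10585 by mouse against 1119 to 4302. The part of either in the difference was not tested. Without mouse 9947, whose inhibitory sum was the highest, 66 members were called, all lower; with the unnamed cluster counted as excitatory, 8 were.

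**Figure D4:**
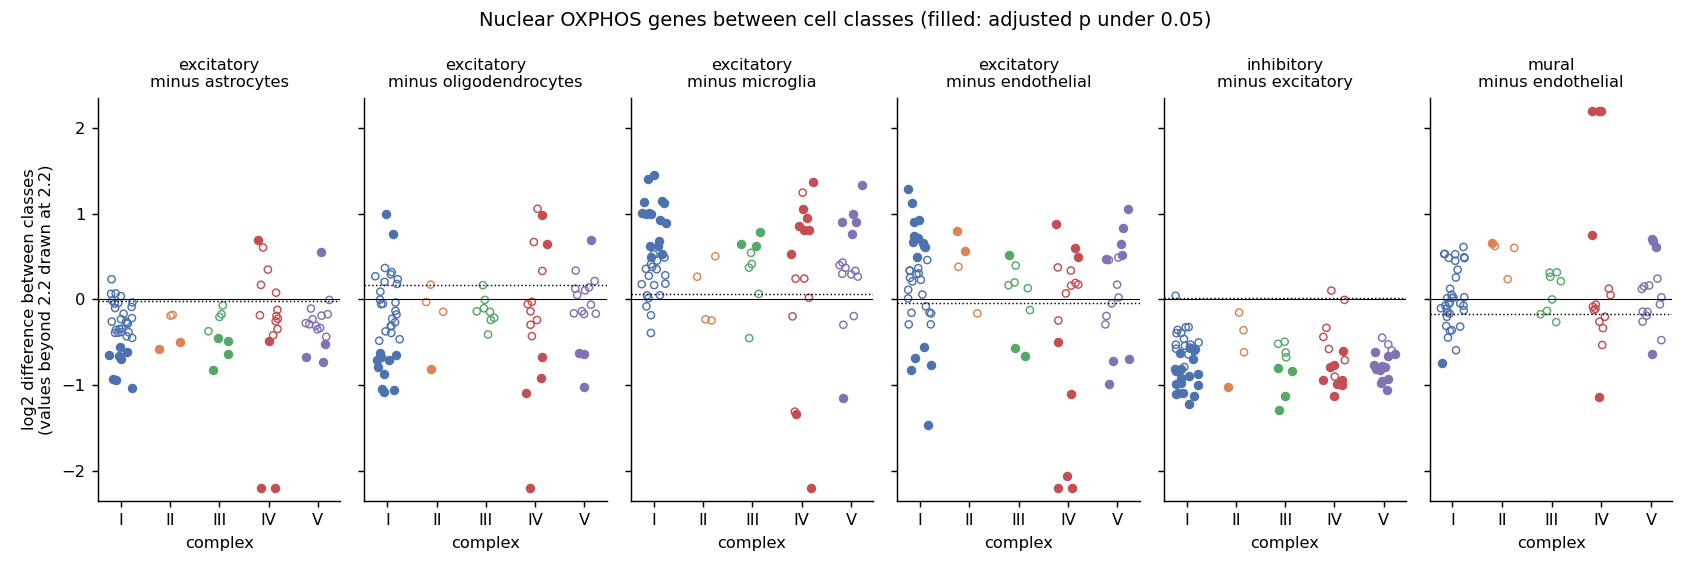
Log2 difference of each tested member (y axis) in 6 comparisons of classes, arranged by complex (x axis), with filled points for edgeR adjusted p under 0.05 and a dotted line at the median of all genes; values beyond 2.2 are drawn at 2.2. Between inhibitory and excitatory neurons 74 of 76 points lie below 0 (median -0.70), and between excitatory neurons and microglia 63 lie above it (median 0.42).

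Between mural and endothelial cells 8 of 76 members were higher in mural cells and 3 lower, where 8.46% of all genes were called higher and 12.49% lower. The median was 0.01, against -0.17 over all genes. Beside Cox4i2, Ndufa4l2 and Cox6b2, Cox8a (chromosome 19, 7289648 to 7292106), which codes a small subunit of complex IV, ran from 799 over 1031 to 1240 CPM in mural and from 176 over 428 to 647 in endothelial cells, with no overlap and a difference of 0.75 ± 0.23 (edgeR adjusted p = 0.0107). Atp5a1, the alpha subunit of the catalytic head of complex V, ran from 309 over 427 to 534 against 160 over 199.6 to 277, also without overlap (0.70, edgeR adjusted p = 0.0177). Atp5b, the catalytic beta subunit, ran from 446 over 600.3 to 961 against 160 over 308 to 452, with ranges that just overlapped (0.68, edgeR adjusted p = 0.0208). Sdha (0.66) and Atp5d (0.61) also passed, and Ndufa7 (-0.74) and Atp5e (-0.64), beside Ndufa4, were lower (largest edgeR adjusted p of these 4 = 0.0452). Complex I had 0 higher and 1 lower of 34, complex II 1 and 0, complex III 0 and 0, complex IV 4 and 1 and complex V 3 and 1. RLE factors gave 14 higher and 2 lower, with all genes shifted by 0.15, and without mouse 9971 7 members were called.

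Complex II, succinate dehydrogenase, feeds electrons from the citric acid cycle and held 2.67% of the members' UMIs. Class means of Sdha, the flavoprotein subunit, were 191 CPM in excitatory neurons, 159 in inhibitory neurons, 178 in astrocytes, 165 in oligodendrocytes, 107 in OPC, 108 in microglia, 111 in endothelial cells and 259 in mural cells. In the same order Sdhb, the iron-sulfur subunit, had 120.5, 76.9, 122, 119, 107, 88.7, 51.2 and 121. Of the membrane anchors, Sdhc had 73.8, 31.4, 92.0, 102, 64.0, 69.3, 68.9 and 107, and Sdhd had 65.6, 50.9, 47.3, 52.1, 47.6, 55.1, 37.8 and 66.1. Both anchors were below Sdhb in each class but endothelial cells, where Sdhc was the higher. Excitatory neurons exceeded endothelial cells in Sdha (0.56, edgeR adjusted p = 0.0197) and Sdhb (0.80, edgeR adjusted p = 0.00409). They were below astrocytes in Sdhb (-0.49, edgeR adjusted p = 0.0485) and Sdhc (-0.58, edgeR adjusted p = 0.0305) and below oligodendrocytes in Sdhc (-0.82, edgeR adjusted p = 0.00535), and inhibitory neurons were below them in Sdhc (-1.03, edgeR adjusted p = 0.009). Sdhd passed in none of the 6 comparisons.

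Other genes of energy metabolism set the members in context, in the order astrocytes, endothelial cells, microglia and oligodendrocytes for excitatory neurons minus each. Over all genes tested, 29.2%, 31.4%, 33.8% and 30.9% were called higher and 28.2%, 32.01%, 29.8% and 23.2% lower, beside which the counts below stand. Of 17 genes of glycolysis and lactate, 8, 12, 13 and 13 were higher in excitatory neurons and 4, 1, 3 and 1 lower, led by the neuronal enolase Eno2, which was higher by 4.41, 5.01, 5.19 and 4.52. Of 13 citric acid cycle genes, 2, 6, 7 and 4 were higher and 6, 1, 1 and 0 lower; Idh3a, a subunit of isocitrate dehydrogenase, was higher by 2.28, 2.06 and 1.11 against the last 3. Of 5 other oxidative phosphorylation genes outside the symbol rule (cytochrome c and others), 2, 4, 4 and 3 were higher and none lower. Among them the ATP synthase inhibitor Atpif1 was at 1.56, 1.54 and 1.81 against astrocytes, endothelial cells and oligodendrocytes. Of the 7 core subunits of complex I among the members, 0, 5, 3 and 2 were higher and 0, 0, 0 and 2 lower. Of 6 carriers and porins, 2, 3, 3 and 2 were higher and 3, 0, 2 and 1 lower, with the porin Vdac1 higher in all 4 (0.89 to 2.25). Of 8 tested regulators of mitochondrial biogenesis, 1, 3, 2 and 4 were higher and 3, 2, 2 and 0 lower; Ppargc1a, the coactivator PGC-1alpha, was lower than in astrocytes (-1.88) and higher than in the other classes (2.63, 3.75 and 2.52). Assembly factors gave few calls in either direction, with 1, 2, 1 and 2 of 5 tested for complex I higher and 1, 0, 0 and 1 lower, and 3, 2, 3 and 4 of 12 for the other complexes higher and 2, 2, 2 and 1 lower. All 10 neuropil RNAs were higher in excitatory neurons in all 4 comparisons. Of 14 genes of the response to dissociation, 9, 1, 3 and 5 were higher and 0, 13, 2 and 2 lower, and their part in the differences of members was not tested.

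In inhibitory minus excitatory neurons 9 of the 17 glycolysis genes were lower, led by Aldoa (-1.72) and Ldha (-1.42). So were 4 of the 5 other genes outside the rule, 3 of 6 carriers and porins and 1 of 13 citric acid cycle genes. In these lists 0 genes were higher. Also lower were 3 of the 7 core subunits of complex I, 1 of 5 and 4 of 12 assembly factors and 6 of the 14 dissociation genes, while the regulators Ppargc1b (1.42) and Nrf1 (1.48) were higher. In mural minus endothelial cells 2 glycolysis genes (Ldhb 1.61, Aldoa 0.83) and 1 carrier (Slc25a4 1.11) were higher. No citric acid cycle gene, core subunit of complex I or other gene outside the rule passed. Of the assembly factors for complexes II to V 1 of 12 was higher and 2 lower, 2 of 10 neuropil RNAs were higher and 1 of 14 dissociation genes was lower. The coactivator gene Ppargc1b was 4.55 higher in mural cells (edgeR adjusted p = 5.88e-11). Over all genes tested, 11.96% were called higher and 14.5% lower in inhibitory than in excitatory neurons. Between mural and endothelial cells these shares were 8.46% and 12.49%.

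Ketamine in vehicle-treated mice changed no member past the threshold in any of 5 classes. In astrocytes, BCD/Ket minus BCD/Sal had a median of 0.54 over 76 tested members against 0.11 over all genes, with 73 above 0. Of these members, 2 had an unadjusted p under 0.05 (all genes 3.67%) and 0 were called (all genes 0.0113%). The astrocyte sums were 14691 and 16198 CPM in BCD/Sal and 6399, 21094 and 19828 in BCD/Ket, so the groups overlapped and the 2 higher BCD/Ket mice stood against a low one with 32 cells. Ndufa8, an accessory subunit of complex I with the smallest p, had 61.7 and 92.6 in BCD/Sal and 67.4, 216 and 234 in BCD/Ket, a log2 difference of 1.79 ± 0.66 (edgeR adjusted p = 1); the 92.6 of mouse 9947 and the 67.4 of mouse 9946 were 1 UMI each, under the floors of 278 and 202 CPM. In endothelial cells the median was 0.31 over 76 members (all genes 0.05). Of these members, 2 had an unadjusted p under 0.05 (all genes 3.06%) and 0 were called (all genes 0%). The endothelial sums were 12357 and 11231 in BCD/Sal and 10202, 18214 and 13150 in BCD/Ket, again overlapping. Without mouse 9949, the highest, the median was 0.03 in endothelial cells and 0.22 in astrocytes. Without mouse 9901 it was 0.57 in endothelial cells and 1.33 in astrocytes, where mouse 9947 then stood alone and the median of all genes was 4.79.

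In excitatory neurons the median was -0.48 over 74 members (all genes 0.00). Of these members, 7 had an unadjusted p under 0.05 (all genes 1.75%) and 0 were called (all genes 0%). The median was -0.87 without mouse 9986, -0.23 without mouse 9946 or mouse 9947, and 0.056 with at least 500 genes. Ndufs8, a core subunit of complex I, had 65.1 and 93.3 in BCD/Sal and 11.6 and 23.0 in BCD/Ket, a fitted difference of -2.22 ± 0.79 (edgeR adjusted p = 1); the BCD/Ket values were 1 and 2 UMIs, under the floors of 34.8 and 34.5 CPM. In inhibitory neurons the median was -0.92 over 67 members (all genes -0.02). Of these members, 2 had an unadjusted p under 0.05 (all genes 1.05%) and 0 were called (all genes 0%). That median turned on mouse 9947, whose inhibitory sum of 20831 stood above 4284 in the other BCD/Sal mouse and above all 3 BCD/Ket mice (8442, 9528 and 6504): without it the median was 0.96, and without mouse 9901 it was -1.67. In oligodendrocytes the median was 0.41 over 71 members (all genes 0.01), and it ran from 0.095 without mouse 9949 to 0.76 without mouse 9901. Of these members, 7 had an unadjusted p under 0.05 (all genes 4.46%) and 0 were called (all genes 0%). Cox5a, a subunit of complex IV, had 43.1 and 0 in BCD/Sal and 108, 176 and 156 in BCD/Ket, a fitted difference of 2.29 ± 0.75 (edgeR adjusted p = 0.985). The 43.1 was 3 UMIs, and the 0 of mouse 9947 allows up to 112 CPM, above the lowest BCD/Ket value. Its partner in that complex Cox5b had 187 and 74.4 against 259, 394 and 468, a difference of 1.37 ± 0.48, where the 74.4 was 2 UMIs.

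Corticosterone among ketamine-treated mice also gave 0 calls among members in 8 classes. An unadjusted p under 0.05 was reached by 1.87% of all genes in astrocytes, 2.44% in endothelial cells and 0.929% in inhibitory neurons. In astrocytes CORT/Ket minus BCD/Ket had a median of -0.15 over 76 members (all genes 0.01; 1 at an unadjusted p under 0.05; all genes called 0.0225%). In endothelial cells it was -0.08 over 76 (all genes -0.05; 3 at that p; 0.0581% called). In inhibitory neurons it was -0.06 over 67 (all genes -0.02; 0 at that p; 0% called). Leaving out 1 mouse turned the sign of each, with ranges of -0.42 to 0.17, -0.24 to 0.18 and -0.86 to 0.30.

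In excitatory neurons the median was 0.50 over 74 members (all genes 0.02). Of these members, 8 had an unadjusted p under 0.05 (all genes 2.88%), and 0% of all genes were called. Alternatives other than leaving out a mouse moved that median between -0.92 and 0.52, and its sign changed in 3 of 23 alternatives. Atp5j, a subunit of the stalk of complex V, had 92.9 and 115 in BCD/Ket and 221, 771 and 239 in CORT/Ket, without overlap, with a difference of 1.91 ± 0.58 (edgeR adjusted p = 0.999). The value of 771 came from mouse 9968, which had 10 excitatory neurons and the highest summed level of that class (28108 CPM), and without that mouse the median was 0.08. In microglia the median was -0.06 over 74 members (all genes 0.00; 1 at that p; 0% called) and in mural cells 0.00 over 67 (all genes 0.02; 2 at that p; 0.107% called). In OPC it was -0.12 over 73 (all genes 0.03; 2 at that p; 0.444% called), where Uqcrc1, a core subunit of complex III, had 168 and 132 in BCD/Ket and 59.5 and 28.6 in CORT/Ket, where 28.6 was 2 UMIs (-1.65 ± 0.60, edgeR adjusted p = 0.562). The OPC median was -1.06 without mouse 9968 and 0.21 without mouse 9971. In oligodendrocytes it was 0.11 over 71 (all genes -0.01; 2 at that p; 0.0282% called). The share of all genes at that p was 2.60% in microglia, 3.20% in mural cells, 2.95% in OPC and 2.77% in oligodendrocytes. Leaving out 1 mouse gave medians of -0.27 to 0.25 in microglia, -0.12 to 0.26 in mural cells and -0.033 to 0.35 in oligodendrocytes. DESeq2 also called 0 members in the 13 comparisons. Mice 9946, 9947 and 9967, which belong to the 3 groups of these comparisons, held 0 to 3 microglia, and 9946 and 9967 had the lowest astrocyte sums (6399 and 5809).

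For CORT/Sal, mouse 9969 lay above both BCD/Sal mice in the summed level of excitatory neurons (24779 against 13483 and 17631), astrocytes (21129 against 14691 and 16198), oligodendrocytes (19329 against 13894 and 11385) and endothelial cells (17803 against 12357 and 11231), and between them in inhibitory neurons (11851 against 4284 and 20831). It was also among the 3 highest mice in all 8 classes, so the group and the mouse cannot be told apart. Fits with this 1 library give effect sizes only, since the group then has no spread of its own. The median CORT/Sal minus BCD/Sal difference over members was 0.71 in excitatory neurons (all genes -0.04) and 0.74 in astrocytes (0.16). It was 0.60 in oligodendrocytes (-0.04), 0.66 in endothelial cells (0.05) and -0.17 in inhibitory neurons (-0.13). Medians of CORT/Ket minus CORT/Sal ran from -0.62 in inhibitory neurons (all genes 0.07) to -0.17 in microglia (0.02). The hemoglobin-led cluster of mouse 9970 held 35245 CPM of members, within the range of choroid plexus cells, and its 11 endothelial cells held 8772, below all 9 other mice.

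The 13 mt- genes code the remaining subunits of complexes I, III, IV and V, and few of them passed the test. Against microglia 3 were higher in excitatory neurons (mt-Atp6 0.71, mt-Nd1 0.57 and mt-Atp8 0.57), with a median of 0.44 over the 13. Against astrocytes and endothelial cells mt-Nd1 alone was higher (0.87 and 0.79), and against oligodendrocytes mt-Co1 was lower (-0.65). Between inhibitory and excitatory neurons mt-Nd1 (-0.57), mt-Atp6 (-0.56), mt-Nd2 (-0.55) and mt-Nd3 (-0.55) were lower, with a median of -0.43. None passed between mural and endothelial cells or in any treatment comparison. All cells compared here were selected for the limit on the mt- share, which limits how far the mt- genes can differ.

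Barcodes removed for their mt- share held more of the nuclear members, above all of complex IV. Kept barcodes held 9826 to 18697 CPM of members by mouse (median 13486), and removed barcodes held more in 8 of 9 mice, by a median ratio of 2.37 (0.799 to 2.65); the exception was mouse 9947. By mt- share, the median over mice was 10543 up to 5%, 14728 from 5% to the limit, 14953 from there to 25%, 28234 from 25% to 50% and 42017 from 50% to 75%. The median member ratio of removed to kept was 2.80 in complex IV, against 1.47 in complex I, 1.02 in complex II, 1.56 in complex III and 1.49 in complex V, and 12 of 17 members of complex IV were over 2, against 6 of 35, 0 of 4, 3 of 8 and 4 of 16. Complex IV made up 25.3% to 28.0% of members in kept barcodes and 26.9% to 46.1% in removed ones.

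The highest ratio, 7.17, was that of the rare Cox6a2, which was at 0 in the kept barcodes of 3 of 9 mice, so that its ratio covers the other 6. Cox8a ran from 305 over 589 to 843 CPM in kept barcodes and from 491 over 3813 to 5477 in removed ones, a median ratio of 6.39 and higher in 8 of 9 mice. Ndufb9, an accessory subunit of complex I (ratio 5.04), and Cox6a1 (4.70) were higher in 9 of 9 mice, and the complex IV subunit genes Cox6c (4.52) and Cox7c (4.03) followed. The lowest ratios were 0.214 for Ndufa4l2, 0.262 for Cox4i2 and 0.626 for Cox6b2. The highest class mean was in mural cells for Ndufa4l2, Cox4i2 and Cox8a, and in astrocytes for Cox6b2. Ndufb9, Cox6a1, Cox6c and Cox7c had it in oligodendrocytes, and Cox6a2 in inhibitory neurons. Over the median of the classes that mean was 2645-fold for Ndufa4l2, 571-fold for Cox4i2, 4.49-fold for Cox6b2 and 53.8-fold for Cox6a2. It was 1.72-fold for Cox8a, 1.43-fold for Ndufb9, 1.89-fold for Cox6a1, 1.44-fold for Cox6c and 1.74-fold for Cox7c. The part of cell makeup in the ratios of removed to kept was not tested. The summed level of neuropil RNAs, by median over mice, moved with the same bins, and at 50% to 75% it was 14965 to 29612 CPM against 1381 to 6894 up to 5% over the 9 mice; its part in the rise of the members was not tested.

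**Figure D5:**
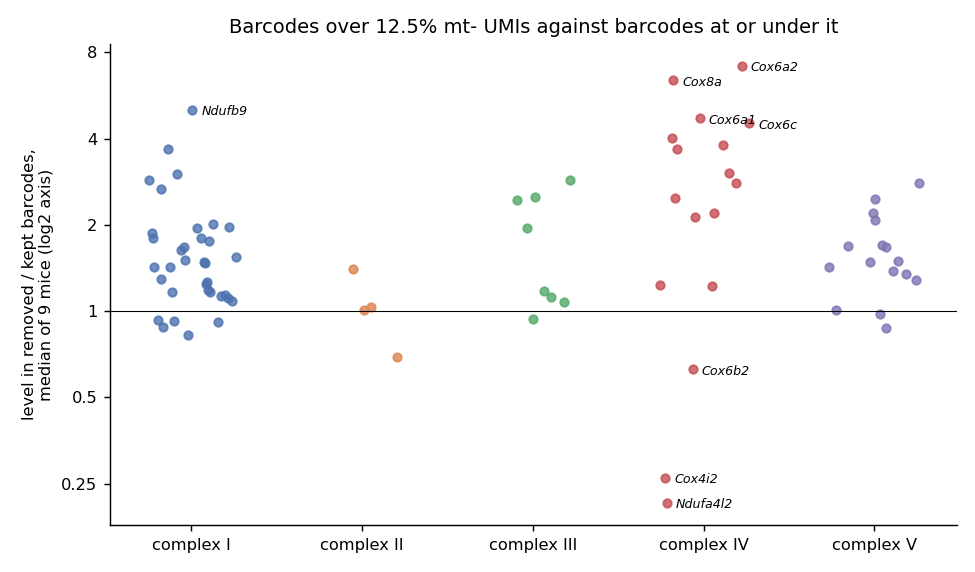
Ratio of each member's level in removed barcodes to that in kept barcodes (y axis, median of 9 mice, log2 axis), arranged by complex (x axis), with 1 point per member. Cox6a2 at 7.17, Cox8a at 6.39, Ndufb9 at 5.04 and Cox6a1 at 4.70 stand high, and Ndufa4l2, Cox4i2 and Cox6b2 lie under 1.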

How the data were processed

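The deposited files hold UMI counts per gene and barcode for 10 BLA libraries; per the file headers and the submitters' processing notes, the authors used Cell Ranger 3.0.2 and Seurat 3.1.1, and the labels name mm9. The prefrontal libraries (10 samples) were not analysed here. Cells were filtered at an mt- share of 12.5% and 200 genes, scaled to 10000, and clustered on 2000 variable genes other than the members and mt- genes (30 principal components, 20 neighbours, Leiden 0.8, seed 1; scanpy 1.11.5, Python 3.11.15). A cluster took a class name with at least 3 markers of that class among its 50 leading genes; the markers did not include the members. Doublets were not removed, and removal with Scrublet was an alternative. The cell count stated by the study is not tied there to the BLA libraries and was not set beside the 28722 barcodes here.

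Counts were summed per mouse and class (at least 10 cells) and tested with edgeR 4.0.16 (R 4.3.3; TMM, filterByExpr, robust quasi-likelihood fit, Benjamini-Hochberg, threshold 0.05); DESeq2 1.42.0 was an alternative. In class comparisons the mouse was a block, since classes of 1 library share 1 mouse. Treatment comparisons were made within a class over mice, where both groups had at least 2 libraries, and p-values measure the spread between these mice. The pipeline was tested on simulated data. Total kept counts per library limit the precision of low genes; the floor is 3 counts and intervals are at 95%, and both cover counting error only.

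The members and the gene lists were chosen with earlier results of these data known. The lists covered markers, glycolysis, citric acid cycle, core subunits, assembly factors, carriers, regulators, other genes outside the rule, neuropil and dissociation RNAs. Up to 5 called members per direction, the isoform pairs and complex II were named, with up to 3 genes per other list. Members and lists are described by counts and medians beside all genes. Alternatives chosen after seeing the data were counting the unnamed cluster with excitatory neurons, keeping only libraries with at least 10 microglia, a term for the others, and testing the lone CORT/Sal library.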

Additional observations from a re-analysis of the deposited data

Results flagged for a closer look

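Over 21 values tested for a single mouse far from the rest of its class, 3 were past Dixon's 95% limit, which chance passes in about 1 in 20. The summed level of the members in inhibitory neurons was 20831 CPM in mouse 9947 (BCD/Sal), with the next mouse at 11851. Cox4i2 in endothelial cells was 117 CPM in mouse 9967 (CORT/Ket), with the next mouse at 31.9. That 117 was under the floor of 175.6 CPM for the endothelial cells of mouse 9967. Sdha in mural cells was 534 CPM in mouse 9946 (BCD/Ket), with the next mouse at 300.2; that mouse had 12 mural cells.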

How the results depend on the processing

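The limit on the mt- share and the makeup of the excitatory class moved the class comparisons most. With an mt- share up to 5%, 80.05% of the barcodes of the class named excitatory came from the unnamed cluster with 2 excitatory markers, and 2.27% from the excitatory class of the report. The members called were then 65 against astrocytes, 62 against endothelial cells and 60 against microglia, all lower in excitatory neurons. Between the neuron classes 56 were called, all higher in inhibitory neurons. The inhibitory class then held 95 barcodes, and 2 libraries had at least 10 of them, against 9 libraries in the report. The summed level relative to the mean of the classes went from 0.23 to -1.31 in excitatory and from -0.59 to 0.24 in inhibitory neurons (log2). Members called higher in excitatory neurons then reversed: Atp5g1 to -1.40 against astrocytes; Atp5g1 to -1.26, Atp5g3 to -2.11, Cox7b to -1.07, Cox8a to -1.29, Ndufa4 to -2.62, Ndufb5 to -0.91, Ndufv2 to -0.86, Sdha to -0.78 and Sdhb to -0.86 against endothelial cells; and Atp5g1 to -1.08, Atp5g3 to -1.23, Cox7a2 to -1.35, Cox7b to -1.07, Cox8a to -1.31, Ndufa4 to -1.68, Ndufa5 to -1.86 and Ndufs5 to -1.47 against microglia. Inhibitory minus excitatory values became 1.39 for Atp5g1, 1.92 for Atp5g2, 2.58 for Atp5g3, 1.98 for Cox6b1, 2.22 for Cox7a2, 1.77 for Cox7b, 1.78 for Cox8a, 2.62 for Ndufa4, 2.75 for Ndufs5, 3.41 for Ndufs6, 2.21 for Sdhc, 2.60 for Uqcr11 and 3.13 for Uqcrb. With the unnamed cluster counted as excitatory, 68 were called against astrocytes, 44 against oligodendrocytes and 8 between the neuron classes, and Atp5g1 against astrocytes (-0.040) and Ndufa4 against endothelial cells (-0.093) changed sign.

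Other settings moved counts by over 1.5 times. A limit of 25% gave 47 against astrocytes, 17 between neuron classes, 21 between vessel classes and a mural level of 0.56 (0.32 in the report; 0.60 at Leiden 1.2). At least 500 genes gave 46 against astrocytes. At least 30 cells gave 21 against endothelial cells, 21 against microglia, 16 between neuron classes and 17 between vessel classes. RLE factors gave 56 and 63 against endothelial cells and microglia. Leiden 0.4 gave 55 against microglia and 13 between neuron classes, where Scrublet gave 11, clustering with the members 9 and mouse 9970 included 19. Only the 6 libraries with microglia gave 53 and 71. No filter on low counts gave 15 against oligodendrocytes and 5 between vessel classes. Without the mouse as a block, 14, 21 and 19 were called against astrocytes, endothelial cells and microglia, and 4 between vessel classes. Leaving out 1 mouse gave 16 to 35 against astrocytes, 31 to 66 between neuron classes and 7 to 14 between vessel classes. With mouse 9970 the CORT/Sal minus BCD/Sal difference of the endothelial sum was 0.10, not 0.60. The cause of these shifts was not tested.

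Of the counts of called members under alternatives in class comparisons, 109 were within 1.5 times and 33 were not. The larger of the higher and lower counts changed side in 10 of the 142: 6 against endothelial cells, 2 against microglia, 1 against oligodendrocytes and 1 between neuron classes. Of 1781 values of named members under alternatives, 1473 held their call, 275 lost it and 33 reversed. Ndufa4l2 and Cox4i2 (23 each) and Cox6b2 (20) held theirs between vessel classes under all alternatives that gave a value, as did Cox7a2l against endothelial cells and microglia and Atp5g2 against microglia (24 each). Atp5e between vessel classes lost its call in 19 of 23, Cox6b2 against endothelial cells in 17 of 20 and Atp5g1 against astrocytes in 12 of 24. No treatment comparison gave a call under 291 alternatives. The small mural and OPC sums limit what low members can show.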

Other observations

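Some classes were too small for the tests. Other immune cells, led by H2-Aa, Cd74, Pf4 and Mrc1, held 14898 to 17040 CPM of members in 4 mice, all above the microglial range of 9352 to 12053, and their Cox7a2l level averaged 524 ± 59.3 (SD, n = 4), above the highest microglial value of 414. Ependymal cells of 1 mouse held 14449. An unnamed cluster of 270 cells led by the immediate early genes Fosb, Atf3 and Fos held 11652 over 14906 to 17278 CPM in 6 mice.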
